A study of Rattus norvegicus with 64 samples.

Results

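The reconstructed bladder wall of rats that received BAM seeded with ASCs and were followed for 90 days was set against that of rats that received BAM only and were followed for 180 days. BAM is the bladder acellular matrix, the wall that remains once its cells are removed, and ASCs are stromal cells isolated from adipose tissue. The comparison asks whether the seeded graft at the earlier day resembled the unseeded graft at the later day. The members are the 16 arrays that carry these labels, 8 per group, of 64 arrays in the series. They were taken by label and not by a measured value, but the comparison was set with earlier results of these data known. All rats of both groups were male syngeneic Wistar rats that underwent hemicystectomy and augmentation with a graft of about 1 cm2. In the seeded group the matrix was seeded with 10000000 ASCs of the third passage from retroperitoneal fat and kept in culture before surgery, so that the number of cells at implantation is not known, and in the other group it carried no cells. The age of the operated rats is not stated in the sources used here. Seeding and follow-up both differ between the groups, so that the effect of the cells and the effect of the extra time cannot be told apart. One RNA sample was taken from the whole reconstructed wall of each rat.

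The bladder wall is lined by urothelium, a barrier epithelium whose surface cells carry uroplakin plaques, and emptied by the detrusor, a smooth muscle rich in actin, myosin and desmin. Between them lies a collagen-rich stroma with fibroblasts, vessels, nerves and resident macrophages. An acellular graft is repopulated from the adjoining wall, and healing tissue passes from inflamed provisional matrix to remodelled collagen and regrown muscle.

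Levels are log2 processed spot signals relative to the 75th percentile of each array, so that 0 is the brightness of that percentile and a difference of 0.58 is 1.5-fold. Of 30367 gene probes on the array, 11294 were well above background on all 16 arrays and were tested, and 7477 were well above background on none. A further 2498 probes were well above background on every array of BAM seeded with ASCs at 90 days but not on all of BAM only at 180 days, and 53 showed the opposite pattern. With BAM 180 d replicates 7 and 8 left out of the filter, 13517 probes were well above background on all remaining arrays. The probes gained belong to the 2498. No probe was well above background on all 8 arrays of one group and on none of the other. Each group was hybridized on a slide of its own, and the slide cannot be told apart from the group. The number of arrays, 8 per group, limits the precision, and the median standard error of a difference was 0.12.

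In both groups single arrays stood apart. In BAM only at 180 days, 47.2% of gene spots on replicate 7 and 45.0% on replicate 8 were well above background, against 57.1% to 62.4% on the other 6 arrays. In BAM seeded with ASCs at 90 days, replicate 3 stood alone by Dixon's 95% criterion, a wide gap to the other 7 arrays of its group, for 1249 of 11291 probes, against 26 to 73 probes for each of the other arrays. On this array the mean level of urothelial genes was the highest of its group (2.43, against a group median of 1.57) and that of macrophage genes the lowest (-0.18, against 2.05). Its fibrillar collagen and matrix genes were also lowest (0.11, against 0.96), as were those of endothelium (-0.75, against 0.05). Its smooth muscle genes were highest (2.75, against 2.19), though close to those of replicate 5 (2.74). In BAM only at 180 days replicate 3 was likewise highest in urothelial genes (1.96, against a group median of 1.52) and in smooth muscle genes (2.74, against 2.47). It was lowest in macrophage genes (0.81, against 1.63) and in fibrillar collagen and matrix genes (0.62, against 1.00). Its endothelial genes (-0.03, against 0.08) were not the lowest. In a bulk sample fewer cells of a type and less RNA per cell cannot be told apart. In BAM only at 180 days 45 to 175 probes per array stood alone by the same criterion, 175 on replicate 3, 149 on replicate 2, 105 on replicate 7 and 87 on replicate 8. Counts are given with and without 3 arrays, BAM+ASCs 90 d replicate 3 for its lone probes and BAM 180 d replicates 7 and 8 for their low share of spots above background. Where BAM+ASCs 90 d replicate 3 was left out, BAM 180 d replicate 3 was kept.

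**Figure D1:**
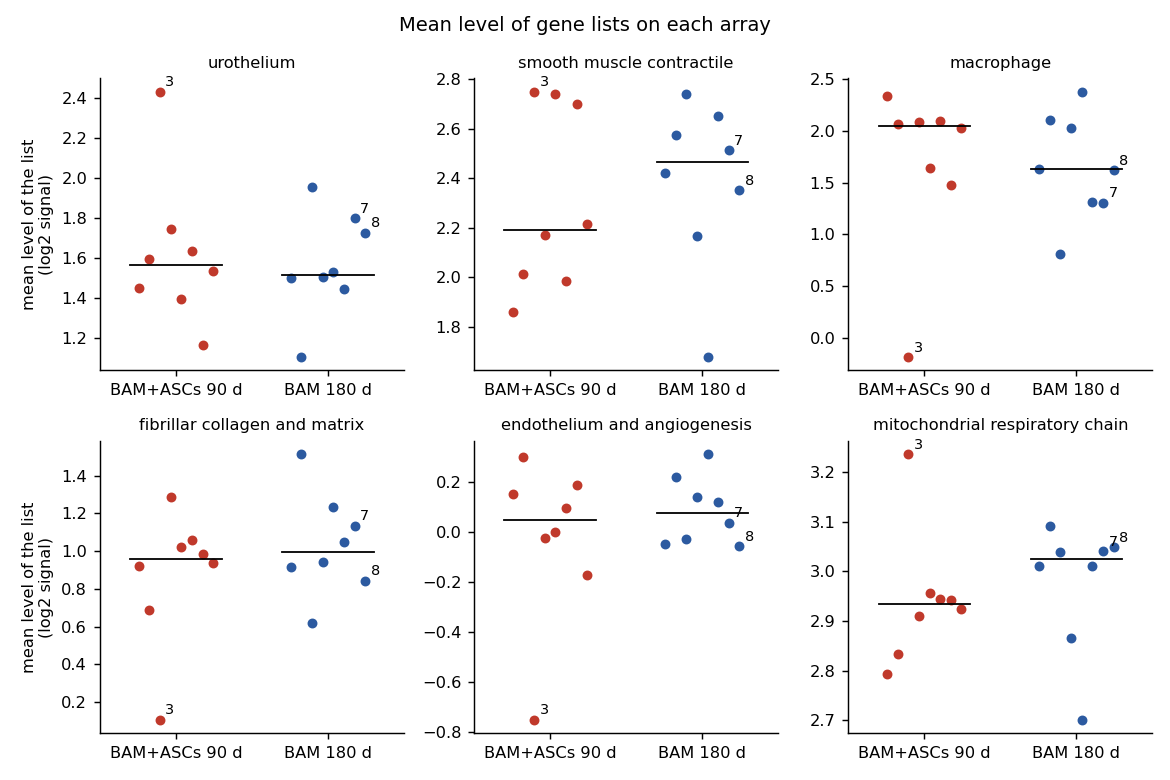
Mean level of 6 gene lists on each of the 16 arrays, on the y axis as log2 signal relative to the 75th percentile of the array, over members not saturated on any array. Points are arrays, lines are group medians, and the numbers mark replicate 3 of BAM+ASCs 90 d and replicates 7 and 8 of BAM 180 d. In its group that replicate 3 is lowest in macrophage, matrix and endothelial genes and highest in urothelial, smooth muscle and mitochondrial genes.

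Few genes separated the seeded graft at 90 days from the unseeded graft at 180 days. Only 20 of 11294 probes (0.177%) passed an adjusted p of 0.01 and a 1.5-fold change in the limma fit, 7 higher (0.062%) and 13 lower (0.115%) in BAM seeded with ASCs at 90 days, and 2035 had an unadjusted p below 0.05. Among 6852 named genes with 1 probe each, 7 were called (0.102%), 3 higher (0.0438%) and 4 lower (0.0584%), and 16.8% had an unadjusted p below 0.05. With the fit and the adjustment run on these 6852 probes alone, 2 were called, 1 higher and 1 lower. For 9085 probes (80.4%) the whole 95% interval of the difference lay within 1.5-fold, which is called alike below. The median difference over all tested probes was 0.0047. The arrays of the groups did not overlap for 74 probes (0.655%), 8 of them among the 20. The count of 20 rested on several arrays: it was 12 without BAM+ASCs 90 d replicate 1, 10 without replicate 2, 10 without replicate 5 and 12 without replicate 6, and 12 without BAM 180 d replicate 7 and 7 without replicate 8. Without BAM 180 d replicate 3 it rose to 29. Without BAM+ASCs 90 d replicate 3 it was 19, of which 16 were among the 20. When this array and BAM 180 d replicates 7 and 8 were all left out, 3 probes were called and 8716 were alike.

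**Figure D2:**
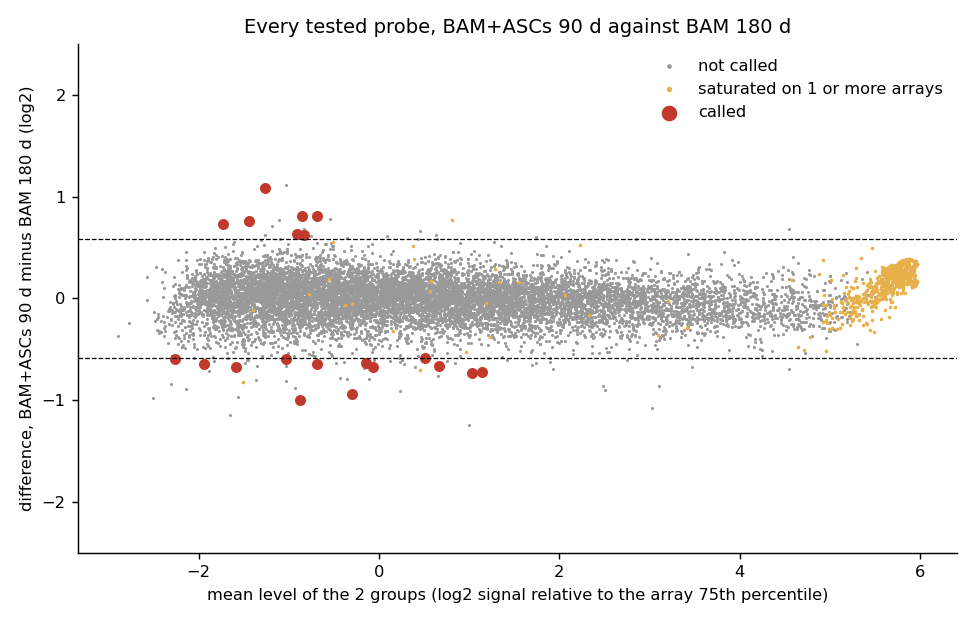
Difference between the groups (y axis, log2) against the mean level (x axis, log2 signal relative to the 75th percentile) for 11294 probes. Red points are the 20 called probes, which lie in the dimmer part of the range, yellow points are probes saturated on 1 or more of the 16 arrays, and dashed lines mark 1.5-fold.

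Of the 20 called probes, 11 carried a gene name and 9 carried none. The called genes that were higher in BAM seeded with ASCs at 90 days act in protein turnover, RNA processing and signalling, and none belongs to the gene lists for bladder cell types. Znrf4, a ubiquitin ligase of the endoplasmic reticulum, ranged on the seeded arrays from -0.95 to -0.44 with a median of -0.78. On the unseeded arrays at 180 days it ranged from -2.20 to -1.27 with a median of -1.92. The groups did not overlap, and the difference was 1.09 ± 0.22 (SE), or 2.12-fold (adjusted p = 0.00273, limma). This was the only called probe beyond 2-fold. The probe lay closer to the seeded group in the other late groups, with means of -1.09 in the BAM 90 d group and -0.83 in the BAM+ASCs 180 d group. Without BAM 180 d replicate 8 it was no longer called.

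Taf15, an RNA-binding protein of the FET family, ranged from -0.42 to -0.18 (median -0.29) in BAM seeded with ASCs at 90 days and from -1.39 to -0.80 (median -1.17) in BAM only at 180 days. Every seeded array was above every unseeded one, by 0.81 ± 0.13 on average (1.76-fold, adjusted p = 0.000128, limma), and the call was kept when any 1 of the 16 arrays was left out. It rested on a single probe, since the brighter probe of Taf15 differed by 0.20 with an adjusted p of 0.41. Uhmk1, a kinase that phosphorylates splicing factors, ranged from -1.62 to -0.86 (median -1.36) in the seeded and from -2.33 to -1.49 (median -2.20) in the unseeded group. The arrays overlapped, and the difference was 0.73 ± 0.12 (1.66-fold, adjusted p = 0.000205, limma). It was called whichever single array was left out. The second probe of Uhmk1 gave a difference of 0.56 with an adjusted p of 0.00396, just under the fold threshold.

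Acap2, a GTPase-activating protein for Arf6 in endosomal traffic, ranged from -0.93 to -0.28 (median -0.61) in the seeded and from -1.89 to -0.94 (median -1.21) in the unseeded group. These arrays did not overlap, though by a narrow margin, and the difference was 0.63 ± 0.10 (1.55-fold, adjusted p = 0.000128, limma). Without BAM 180 d replicate 7, its lowest array, the difference of 0.54 no longer reached 1.5-fold. The other probe of Acap2 differed by 0.16 with an adjusted p of 0.423. Probe sequences were not used here, so that hybridization of the Taf15 and Acap2 probes to other transcripts was not tested. Dnpep, an aspartyl aminopeptidase, ranged from -0.67 to -0.18 (median -0.56) in BAM seeded with ASCs at 90 days and from -1.56 to -0.78 (median -1.06) in BAM only at 180 days. The groups did not overlap, with a difference of 0.62 ± 0.14 (1.54-fold, adjusted p = 0.00753, limma), but the call was kept in only 5 of 16 fits that left out 1 array. Dusp16, a phosphatase that inactivates stress kinases of the MAPK family, ranged from -1.37 to -0.32 (median -1.12) in the seeded and from -2.47 to -1.20 (median -1.81) in the unseeded group. The ranges overlapped, and the difference was 0.76 ± 0.18 (1.70-fold, adjusted p = 0.00817, limma). Without BAM+ASCs 90 d replicate 3, the highest seeded array, the difference was 0.66 with an adjusted p of 0.0214, and the call was kept in 6 of 16 such fits.

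The named genes that were lower in BAM seeded with ASCs at 90 days were Hic1, Olfml1, Tmprss6 and Zbtb8b, together with the uncharacterized LOC102547275. Hic1, a transcriptional repressor known to mark quiescent mesenchymal progenitors, ranged from 0.00 to 1.26 (median 0.81) in the seeded group and from 0.87 to 1.91 (median 1.52) in the unseeded group. The ranges overlapped, and Hic1 fell by 0.72 ± 0.16 on the log2 scale (adjusted p = 0.00545, limma). The call was kept in 7 of 16 fits with 1 array left out, and without BAM+ASCs 90 d replicate 3, its lowest array, the difference was -0.61 with an adjusted p of 0.016. Olfml1, a secreted olfactomedin-domain glycoprotein, ranged from -0.88 to -0.01 (median -0.33) in the seeded and from -0.19 to 0.64 (median 0.32) in the unseeded group. It fell by 0.67 ± 0.16 (adjusted p = 0.00813, limma), its arrays overlapped, and the call was kept in 4 of 16 fits with 1 array left out.

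Tmprss6, a membrane serine protease best known as a hepcidin regulator in liver, was dim in both groups, from -2.77 to -2.25 (median -2.60) in the seeded and from -2.40 to -0.83 (median -2.09) in the unseeded group. It fell by 0.60 ± 0.14 (adjusted p = 0.00813, limma), with overlapping arrays and 6 of 16 fits kept. Zbtb8b, a zinc finger protein with a BTB domain, ranged from -0.20 to 0.59 (median 0.20) in the seeded and from 0.55 to 0.99 (median 0.87) in the unseeded group. It fell by 0.59 ± 0.14 (adjusted p = 0.00998, limma), a value just inside both thresholds, and 4 of 16 fits kept it. For Hic1, Tmprss6 and Zbtb8b, the BAM+ASCs 180 d group had a higher mean (1.69, -1.30 and 1.33) than either group compared, and Olfml1 had a mean of 0.17 there. Of the 9 called probes without a gene name 8 were lower, and the largest fall, of probe A_64_P015163, was 1.00 ± 0.19 with no overlap between the groups.

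**Figure D3:**
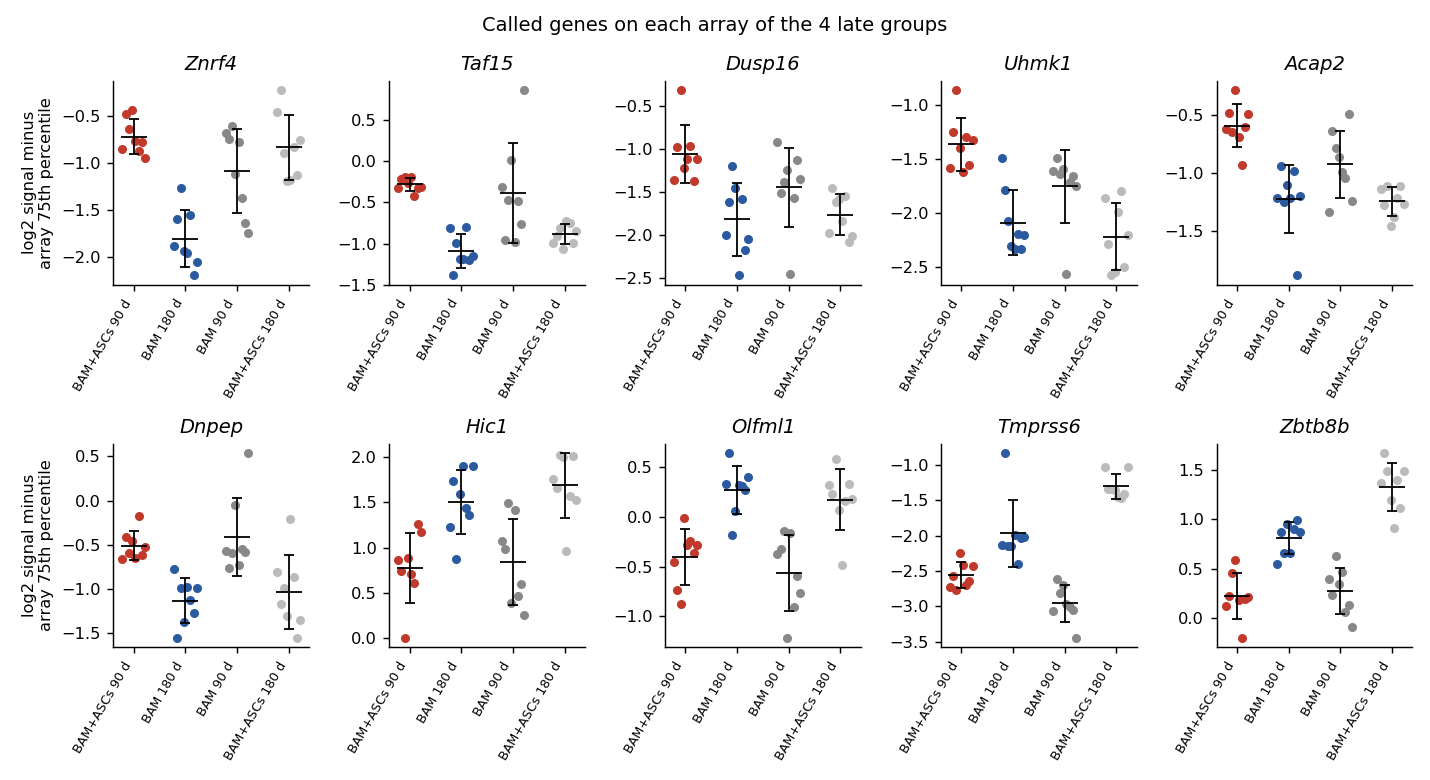
The 10 called genes with a symbol on every array of the 4 late groups; the y axis is log2 signal relative to the 75th percentile of the array, points are arrays, and black bars are the mean ± SD of 8 arrays per group. Znrf4, Taf15, Acap2 and Dnpep show no overlap between BAM+ASCs 90 d (red) and BAM 180 d (blue), and the other 6 genes do.

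At an adjusted p below 0.05 with no fold threshold, 373 probes passed (3.3%), 149 higher (1.32%) and 224 lower (1.98%) in BAM seeded with ASCs at 90 days. At 1 probe per named gene 2.69% passed, 1.24% higher and 1.44% lower. Of 182 named genes that were not saturated on any array, 84 were higher and 98 lower. Among them 12 were members of the gene lists, and 11 of these 12 were lower. The share of list members among all tested genes was not counted, so 12 is not read as few or many. Of the 11, 3 were mitochondrial respiratory chain genes, the most of any list, and others were stromal or secreted. Cavin1, in none of the lists, had a difference of -1.14 ± 0.31 with no overlap between the groups (adjusted p = 0.0228, limma). Tgfbi, a matrix protein induced by TGF-β, ranged from 3.76 to 4.73 (median 4.18) in the seeded and from 4.50 to 5.22 (median 4.91) in the unseeded group, a difference of -0.69 ± 0.18 (adjusted p = 0.0159, limma). Ncam1, an adhesion molecule of nerve and Schwann cells, had medians of -0.20 and 0.75 and a difference of -0.91 ± 0.25 (adjusted p = 0.0276, limma). Both stayed below 0.05 without BAM+ASCs 90 d replicate 3, with adjusted p-values of 0.0204 and 0.0251. Pdgfrb, the PDGF receptor of pericytes and fibroblasts, ranged from -1.49 to 0.33 (median 0.13) in the seeded and from -0.06 to 1.15 (median 0.66) in the unseeded group. Its difference of -0.64 had an adjusted p of 0.0361 with all arrays and -0.44 with an adjusted p of 0.123 without that replicate.

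Igfbp4, an IGF-binding protein, and Pgf, a ligand of the VEGF family, behaved in the same way, with adjusted p-values of 0.0473 and 0.0355 with all arrays and 0.124 and 0.0839 without replicate 3. So did Il34, a cytokine, with a difference of -0.53 (adjusted p = 0.0244 with all arrays and 0.0722 without replicate 3, limma). Fzd1, a Wnt receptor, differed by -0.51 (adjusted p = 0.0228, limma) and Bmpr2, a Bmp receptor, by -0.43 (adjusted p = 0.0401, limma). Each kept an adjusted p below 0.05 without that array. Lrp5, the Wnt co-receptor, was the 1 list member that was higher, from -1.35 to -0.62 (median -0.88) in the seeded and from -2.01 to -1.08 (median -1.60) in the unseeded group, a difference of 0.63 ± 0.16 (adjusted p = 0.0131, limma). Without replicate 3 the 373 probes became 405, of which 309 were shared, and with all 3 arrays left out 99 probes passed, 94 of them shared. Of the 12 list members only Ndufb5 kept an adjusted p below 0.05 without the 3 arrays (0.0295), while Tgfbi had 0.117, Ncam1 0.127 and Lrp5 0.051.

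None of the tested members of the 36 gene lists was called, against 0.102% of 6852 named genes with 1 probe each. Probes at the upper end of the scanner were set aside for the description of the lists, since a saturated spot no longer follows its transcript. Of the 11294 probes, 666 were saturated on 1 or more arrays and 223 on all 16. Among the 10628 others 80.9% were alike, and among named genes with 1 such probe each 80.7%. The cytosolic ribosomal protein genes were the extreme case, with 72 of 76 probes saturated on at least 1 array and 49 on every array of a group, so that no fold is given for them.

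Genes of energy metabolism were close between the groups. All 58 unsaturated subunits of the mitochondrial respiratory chain were alike, with a median difference of -0.04 and a range of -0.30 to 0.20. At an adjusted p below 0.05, 3 of the 58 were lower in BAM seeded with ASCs at 90 days and 0 were higher. Over named genes with 1 probe each, 1.44% were lower at that threshold. Ndufb5, a subunit of complex I, ranged from 2.67 to 3.19 in the seeded and from 2.89 to 3.40 in the unseeded group. It was the 1 of the 58 with an adjusted p below 0.01, at a difference of -0.30 ± 0.07 (adjusted p = 0.00697, limma) that stayed within 1.5-fold. Of the 26 hypoxia and glycolysis genes 19 were alike, among them Ldha, lactate dehydrogenase, at 0.02 ± 0.09 (SE) and Pkm, pyruvate kinase, at 0.24 ± 0.11. All 9 unsaturated reference genes were alike. Of the 20 cholesterol synthesis genes 12 were alike, with a median of 0.04. Intervals are narrow where the rats of a group differ little, so the share that was alike does not rank the lists by size of change. The closeness of energy metabolism genes was not limited to this pair. Over probes well above background on all late arrays, 48 of 48 unsaturated mitochondrial genes were alike here. In the other pairs of the late groups 39 to 47 of the 48 were alike. Of 21 unsaturated hypoxia and glycolysis genes 15 were alike here, and 10 to 15 in the other pairs.

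In the stroma the differences leaned below 0 without passing the test. Of 30 fibrillar collagen and matrix genes 21 had a lower mean in BAM seeded with ASCs at 90 days, the median difference was -0.17, and 11 were alike. Without replicate 3 that median was -0.01. Dcn and Lum, small proteoglycans that organize collagen fibrils, differed by -0.03 ± 0.14 and -0.05 ± 0.18. Prelp, a proteoglycan that anchors basement membranes, and Mfap2, a microfibril protein, had the smallest adjusted p-values of the list, 0.0543 at -0.55 and 0.0689 at -0.58. Col3a1 ranged from 4.91 to 5.62 in the seeded and from 4.78 to 5.75 in the unseeded group and Col1a1 from 5.15 to 5.92 and from 5.06 to 6.20, both with some saturated arrays. A second, unsaturated probe of Col1a1 differed by -0.47 ± 0.20 (adjusted p = 0.185, limma).

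Vessel and stromal marker genes were also not called. Pecam1, an endothelial adhesion molecule, ranged from 1.07 to 2.60 (median 2.13) in the seeded and from 1.63 to 2.41 (median 2.05) in the unseeded group, and its difference of -0.11 ± 0.16 was alike. Of 21 endothelial and angiogenic genes 13 were alike, with a median of -0.11 that became -0.01 without replicate 3. Of 18 mesenchymal stromal genes 7 were alike, with a median of -0.17 and of -0.10 without that array.

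Urothelial and muscle genes showed no called difference, but their spread between rats left wide intervals. Of 28 unsaturated urothelial genes 4 were alike, at a median standard error of 0.44, against 0.12 over all tested probes. Krt5, the keratin of basal urothelial cells, ranged from 0.13 to 2.80 (median 2.02) in the seeded and from 1.11 to 2.87 (median 1.56) in the unseeded group. The difference was -0.02, with an interval from -1.12 to 1.09 that allows more than 2-fold in either direction. Krt20, the keratin of umbrella cells, ranged from -1.98 to 2.48 (median -0.97) and from -1.86 to 0.35 (median -0.60), and its highest value was that of replicate 3. The uroplakins Upk1b and Upk3a, which build the urothelial plaque, were among the brightest probes, at medians of 5.45 and 5.84 in the seeded and 5.34 and 5.55 in the unseeded group, and were saturated on 8 and 15 of 16 arrays.

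Of 24 unsaturated smooth muscle genes 6 were alike, and the median difference was -0.04. Acta2, smooth muscle actin, ranged from 2.41 to 3.38 (median 2.76) in the seeded and from 2.55 to 3.64 (median 3.37) in the unseeded group, a difference of -0.46 ± 0.25 (adjusted p = 0.335, limma). Des, the intermediate filament of muscle, ranged from 4.13 to 5.50 and from 3.94 to 5.36, with a difference of 0.00 and an interval from -0.66 to 0.66. Cnn1, calponin, differed by 0.21 ± 0.44. Myh11 and Actg2 were saturated on 15 and 16 arrays.

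No immune gene was called, and the spread between rats was wide. Ptprc, the pan-leukocyte antigen CD45, ranged from -3.44 to 0.69 (median 0.00) in the seeded and from -1.42 to 0.05 (median -0.86) in the unseeded group. Its difference was 0.41 ± 0.39 (adjusted p = 0.628, limma), and 0.85 with an adjusted p of 0.149 without replicate 3, its lowest array. Cd68, a lysosomal protein of macrophages, ranged from -1.52 to 3.29 (median 2.47) and from -0.29 to 2.86 (median 1.82), and the difference moved from 0.32 to 0.81 when that array was left out. Over 23 unsaturated macrophage genes the median difference was 0.01 with all arrays and 0.28 without it, and no member was called in either case. The mean level of these genes ranged from -0.18 to 2.33 on the seeded and from 0.81 to 2.38 on the unseeded arrays. The lowest unseeded array, BAM 180 d replicate 3, was kept when the lowest seeded array was left out, so that their shift was one-sided. Neutrophil and mast cell genes were largely below the filter, with 2 of 19 and 3 of 18 genes tested, and none of the 12 male accessory gland genes on the array passed it. The marker genes Adipoq (adipocyte), Cpa3 (mast cell), S100a9 (neutrophil), Cd3e (T cell) and Mki67 (proliferation) were also not well above background on all arrays.

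The Hedgehog pathway carries signals from urothelium to stroma, where Ptch1 and Gli1 are both components and targets. Shh, its urothelial ligand, was not well above background on all arrays and was not tested. Of 22 genes of the Hedgehog panel on the array 11 were tested, none was called, 3 were alike and 9 had a lower mean in BAM seeded with ASCs at 90 days. All 5 tested members of the core pathway had a lower mean there, with a median difference of -0.42, or -0.29 without replicate 3, and 1 was alike. Their mean level ranged from -1.25 to -0.66 (median -1.08) on the seeded and from -0.82 to -0.44 (median -0.69) on the unseeded arrays, with some overlap. Disp1, which releases the ligand, differed by -0.42 ± 0.15 (adjusted p = 0.0951, limma). Ptch1, the receptor, ranged from -2.26 to -1.29 in the seeded and from -1.70 to -0.76 in the unseeded group, a difference of -0.68 ± 0.31 with an interval from -1.29 to -0.07 (adjusted p = 0.214, limma). Gli1, the transcription factor, ranged from -2.82 to -0.79 (median -1.71) and from -1.48 to -0.85 (median -1.31), with a difference of -0.45 ± 0.24 (adjusted p = 0.32, limma). The arrays overlapped for both genes, and neither passed the adjusted threshold. Bmp2 and Wnt4, secreted signals that act with the pathway, were alike, at -0.08 ± 0.24 and -0.06 ± 0.26. Bmp4 differed by -0.21 ± 0.23 and Wnt5a by 0.39 ± 0.22, with adjusted p-values of 0.678 and 0.35.

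**Figure D4:**
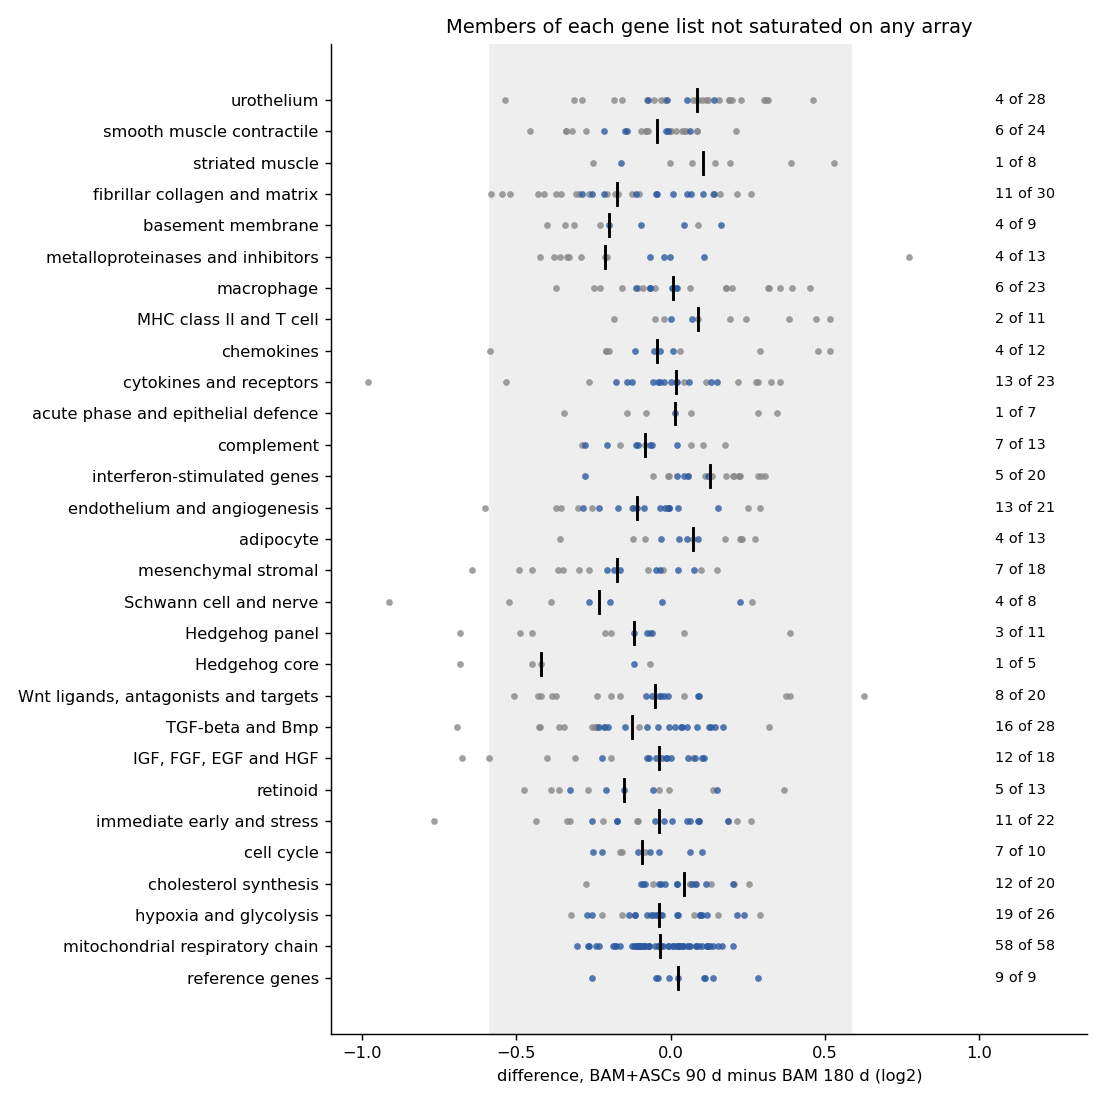
Difference between BAM+ASCs 90 d and BAM 180 d (x axis, log2) for the members of each gene list with at least 5 members not saturated on any of the 16 arrays. Blue points are alike, grey points are not, black lines are medians, the grey band is 1.5-fold, and the numbers give how many members were alike; all 58 mitochondrial genes are blue against 4 of 28 urothelial genes.

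The pair was then set beside the other pairs of the 4 late groups, over 8605 probes well above background on all 32 late arrays. Between BAM+ASCs 90 d and BAM 180 d 13 probes were called (0.151%). Against BAM 90 d the BAM+ASCs 90 d group differed in 1137 probes (13.2%), and against BAM+ASCs 180 d in 521 (6.05%). BAM 180 d differed from BAM 90 d in 1512 probes (17.6%) and from BAM+ASCs 180 d in 363 (4.22%). The remaining pair, BAM 90 d and BAM+ASCs 180 d, differed in 1287 probes (15%). These pairs share arrays and are not independent. The pair compared here had the fewest called probes also after quantile normalization (12) and normexp background correction (7), and without BAM+ASCs 90 d replicate 3 (12).

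The distance between 2 arrays, the root mean square of their log2 differences, averaged 0.40 between the groups compared, against 0.39 within BAM+ASCs 90 d and 0.36 within BAM 180 d. Without replicate 3 these values were 0.37, 0.32 and 0.36. For 4 of 8 arrays of BAM 180 d the nearest other late array was one of BAM+ASCs 90 d, and for 2 of 8 arrays of that group the nearest was one of BAM 180 d. After quantile normalization or normexp background correction the first of these counts was 2 of 8. In the other pairs the mean distance was 0.47 to 0.66. The groups that these pairs add also spread more, with a mean distance of 0.60 within BAM 90 d and 0.44 within BAM+ASCs 180 d. In BAM 90 d, 35.5% of gene spots on replicate 8 were well above background, against 53.0% to 58.5% on the other arrays of that group. This array was kept in the filter, counts and distances of the late groups, and its part in them was not tested. The local background of the slide of BAM 90 d was 321 to 365.5, against 99 to 120 on the seeded slide at 90 days and 138 to 171 on the unseeded slide at 180 days, and its part in the counts that involve that group was not tested.

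**Figure D5:**
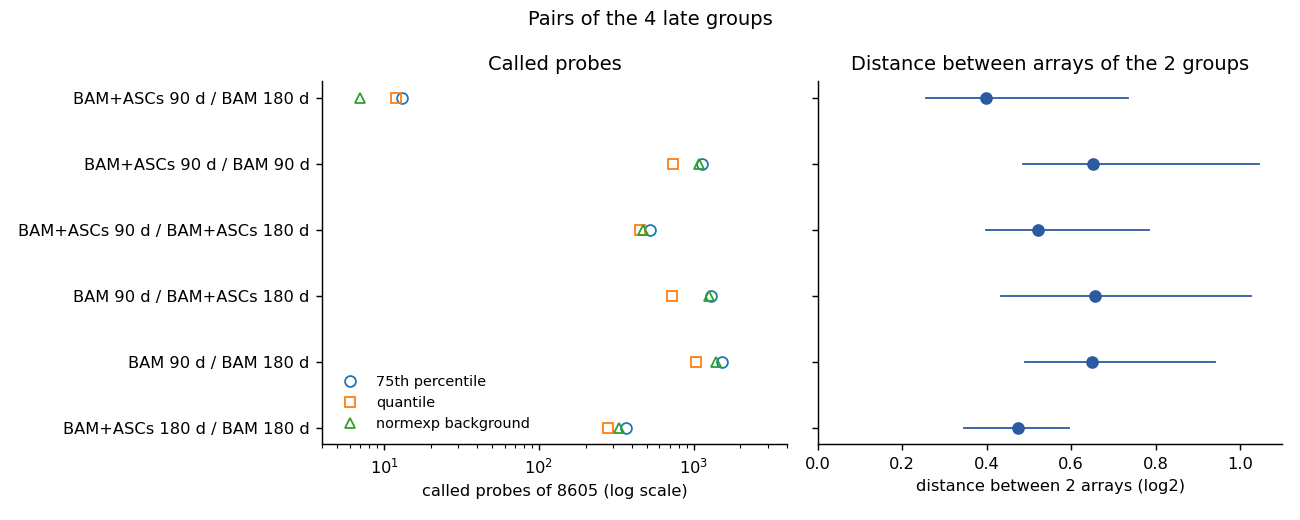
For each pair of the 4 late groups, the left panel gives the number of called probes of 8605 on a log axis under 3 normalizations and the right panel the distance between arrays of the 2 groups (log2), with the mean as a point and the lowest and highest as a line. BAM+ASCs 90 d and BAM 180 d have the fewest called probes, 13, and the smallest mean distance, 0.40.

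Probes that differed between the other late groups were also read in this comparison. Of the 1287 probes called between BAM 90 d and BAM+ASCs 180 d, 7 were called between BAM+ASCs 90 d and BAM 180 d, 1 higher and 6 lower, and 1012 (78.6%) were alike. Of all 8605 probes 82.9% were alike, and of the 7318 probes not called in the first pair 6 were called in the second and 83.7% were alike. Hivep3, a large zinc finger protein, had means of 4.38 ± 0.16 (SD) in BAM 90 d and 2.76 ± 0.23 in BAM+ASCs 180 d, while it stood at 3.15 ± 0.16 in BAM+ASCs 90 d and 2.86 ± 0.19 in BAM 180 d. Slc32a1, a vesicular transporter of inhibitory amino acids, had means of 0.51 ± 0.18 and -1.45 ± 0.33 in the first pair and -1.24 ± 0.19 and -1.57 ± 0.23 in the second. For both genes the difference in the second pair was alike, but it kept the direction of the first pair. It was 0.29 for Hivep3 (interval from 0.12 to 0.45, adjusted p = 0.0331, limma). For Slc32a1 it was 0.33 (interval from 0.07 to 0.58, adjusted p = 0.127, limma).

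In the other direction, Cx3cr1, the fractalkine receptor of monocytes and macrophages, had means of -0.63 ± 0.57 (SD) in BAM 90 d and 1.37 ± 0.49 in BAM+ASCs 180 d. It stood at -0.07 ± 0.40 in BAM+ASCs 90 d and 0.18 ± 0.20 in BAM 180 d, a difference of -0.25 ± 0.21 (SE) that was not called and not alike. Angptl4, a secreted inhibitor of lipoprotein lipase, had means of 0.23 ± 0.90 and 1.72 ± 0.62 in the first pair and 0.88 ± 0.30 and 1.08 ± 0.49 in the second. The groups compared lay between the 2 others for both genes. These 4 genes were taken from the 16 unsaturated genes with the largest differences in the first pair and named after their values were seen.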

How the data were processed

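Total RNA of reconstructed bladder wall was labelled with Cy3 and hybridized on 1-color Agilent rat arrays. The deposited files are scanner tables from Agilent Feature Extraction 12.0.1.1, in which the processed signal is a linear spot intensity corrected for background within the array, with no normalization between arrays. The authors' series matrix, also a linear intensity, was used as an alternative after the same scaling. In it 3 arrays of BAM+ASCs 7 d lay lower than the scanner values by a median log2 difference of -3.29 to -3.30, and BAM 180 d replicate 1 had 26650 empty values. The 4259 control spots and the outlier spots were left out, log2 values were taken relative to the 75th percentile of the array, and repeated spots were averaged into 1 value per probe, taken as well above background where at least 0.5 of the spots were. RefSeq accessions named 18758 of 22372 probes (assembly GRCr8). A mean per group over all 64 arrays was estimated by limma 3.58.1 (R 4.3.3), after the two-way design of the methods, with Benjamini-Hochberg adjustment over all tested probes. Called genes were described by their brightest called probe and other genes by their brightest tested probe. The rule was to name up to 12 called genes in each direction, up to 4 called members of each list and fixed tissue markers. Fewer than 12 genes were called in each direction, and no list member was called. Other list members, and the genes at an adjusted p below 0.05, were named after their values were seen. The groups, gene lists and tests were chosen with earlier results of these data known. The fit was also run on simulated data, whose settings and outcome are not given here and carry no weight in the results. Replicate numbers did not pair the arrays, with correlations of deviations from -0.18 to 0.49. Alternatives were the background correction, scaling, probe filter, arrays fitted, saturated and outlier spots, thresholds and arrays left out. Leaving out 2 or 3 arrays together was chosen after the data were seen.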

Additional observations from a re-analysis of the deposited data

Results flagged for a closer look

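Single arrays lay far from the other 7 of their group, by Dixon's 95% criterion, in 11 of 70 tests. Each test took a gene or an array quality measure in 1 group, and all 11 were of genes. Chance gives about 1 in 20 for independent tests, but these tests share arrays and are not independent. BAM+ASCs 90 d replicate 3 accounted for 7 of the 11. On this array Krt20 (2.48), Bmp2 (2.12), Dusp16 (-0.32) and Wnt5a (-0.74) were far above the rest of the group. Ptprc (-3.44), Cd68 (-1.52) and Bmp4 (-0.71) were far below it. In BAM 180 d, Acap2 was far lower on replicate 7 (-1.89). Tmprss6 was far higher on replicate 2 (-0.83), Gli1 on replicate 6 (-0.85) and Wnt4 on replicate 5 (1.77).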

How the results depend on the processing

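The 20 called probes became 8 with normexp background correction, 34 with no filter on dim probes (27 higher, 7 lower), 53 with probes well above background in at least 1 group (38 higher, 15 lower), 9 with only the 16 arrays, 10 with only the 32 arrays of 90 and 180 days, 2 with 1 probe per gene, 59 at an unadjusted p below 0.01, 1 at 2-fold and 373 at an adjusted p below 0.05 with no fold threshold. They became 11 without BAM 180 d replicates 7 and 8 in fit and filter (10 higher and 1 lower, 4 of them among the 20) and 3 when BAM+ASCs 90 d replicate 3 was left out as well and the filter was kept. With 1 array left out they ranged from 7 to 29 and the alike probes from 8781 to 9063. The 9085 alike probes became 5505 with 1 probe per gene, of 6852 tested. The 13 called probes over the 32 late arrays became 7 with normexp background correction and 3 with the 3 arrays left out. With the 75th percentile over detected probes 12 of 19 called probes were higher, against 7 of 20. The replicate number as a block gave 21 called probes, and was used only as an alternative because the numbers did not pair the arrays: only replicate 3 correlated best with its own number. Of 167 values of the 10 called genes under the alternatives other than leaving out 1 array, 103 were still called and 64 kept their direction without being called. None of the called genes changed direction, and none of the 22 uncalled marker genes became called. The sign of 9 of these marker genes changed under at least 1 alternative. The cause of these changes was not tested. Dim and saturated probes, slide against group, and the wide intervals of urothelial and muscle genes limit the comparison.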
